A study of Homo sapiens with 2 samples.

Results

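Genes of the linker and clustered core histones, which encode proteins that pack DNA, were examined for peaks of LDB1 in the human promyelocytic leukemia line NB4. They were chosen by name, as protein-coding genes of GENCODE release 44 whose symbol is that of a linker histone (H1- followed by a number) or of a clustered core histone (H2AC, H2BC, H3C or H4C followed by a number). The rule found 73 genes among 20033 protein-coding genes, namely 10 of H1, 17 of H2A, 18 of H2B, 13 of H3 and 15 of H4. It uses no measured value.

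CUT&Tag, in which an antibody guides a transposase to cut and tag nearby DNA, was performed on NB4 cells with 1 library for an LDB1 antibody and 1 for IgG. LDB1 overexpression is named for the LDB1 library and untreated cells for IgG, so the effect of the antibody and that of the treatment cannot be told apart. A list of 11046 LDB1 peaks of 229 to 4856 bp (median 451 bp) was analysed, with positions and lengths but no peak height, and the IgG library was not analysed here. With 1 library there is no replicate check, so shares are given with Wilson 95% intervals that cover counting error only, and no p-value is given. The identity of the cells could not be checked against markers, since a peak list holds no expression values, and depth is unknown.

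Most canonical histone genes are transcribed in S phase, when new DNA has to be packed, and they lie in dense clusters whose genes are short and lack introns. Their mRNAs end in a stem-loop, bound by the protein SLBP, in place of a poly(A) tail. LDB1 binds no DNA itself. It joins LIM-domain proteins such as LMO2 to GATA and basic helix-loop-helix factors, which read GATA motifs and E-boxes.

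A stem-loop was found within 100 bases of the stop codon in 66 of the 73 genes (stem of 6 bases with at most 1 mismatch, loop of 4 bases). The most common forms are shown because they are a mark shared by most of these genes, with the stem in capitals.
Found in 40 genes: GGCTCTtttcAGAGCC
Found in 10 genes: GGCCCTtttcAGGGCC
Found in 9 genes: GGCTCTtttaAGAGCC

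Genes in which no stem-loop was found included H1-7, H1-8, H1-10, H2BC10, H3C6 and H4C13. H1-7 and H1-8 are germ-cell linker histones.

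By position, the genes fell into groups whose members lay within 200 kb of the next. On chromosome 6 these were a group of 32 genes over 269 kb, one of 16 over 86.4 kb, one of 5 over 21.7 kb, and the testis pair H2AC1 and H2BC1. On chromosome 1 there were groups of 11 and 2 genes, and genes that stood alone included H4C16 and H1-7 on chromosome 12 and H1-10 and H1-8 on chromosome 3.

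Of the 73 histone genes, 9 had a peak in the gene body or within 3 kb (12.3%, interval 6.62 to 21.8%) and 64 had none. The same held for 3947 of all 20033 protein-coding genes (19.7%), and for 14.4% of the 11583 others within the histone genes' range of length (386 to 37610 bp). Histone genes are short, with a median of 510 bp, and a short gene offers less room for a peak. Other protein-coding genes weighted to the same length classes had a peak in 7.34%, so the ratio of the shares was 1.68 with an interval of 0.902 to 2.97 that includes equality. In the gene body alone, 4 histone genes had a peak (5.48%, interval 2.15 to 13.3%), against 16.5% of all genes, outside that interval, and 3.02% in the same length classes, inside it. In the shortest class, up to 1876 bp, 4 of 54 histone genes (7.41%) and 52 of 948 other genes (5.49%) had a peak. The background of all genes and that of genes of the same length both lay within the interval of the histone genes, so with 3 kb on either side a difference from either was not detectable with this number of genes.

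The 9 genes shared 7 peaks, since H3C2 with H2AC4 and H2AC15 with H2BC15 had 1 peak each between them. By core histone family, a peak was found at 3 of 17 H2A genes, 2 of 18 H2B genes, 1 of 13 H3 genes and 2 of 15 H4 genes. The families' intervals were not compared, because each count is too small to rank them.

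Among the linker histones, H1-1 to H1-8 and H1-10 had no peak, and their nearest peaks were 10718 to 44998 bp away.

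H2A genes form, with H2B, the dimers that flank the core of the nucleosome. H2AC25 had a peak of 519 bp at chr1:228452270-228452788 (hg38), 5344 bp downstream of its TSS. That peak lay in an intron of a long annotated transcript, 4576 bp from the canonical transcript of 510 bp. H2AC4 shared the 371 bp peak at chr6:26032218-26032588, which began 504 bp past its 3′ end. H2AC15 lay 483 bp from the 475 bp peak at chr6:27836923-27837397, also past its 3′ end. None of these 3 peaks was at the start of the H2A gene.

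The peaks at H2B genes also lay away from the start. H2BC15 had the peak of H2AC15 on its upstream side, 1172 bp before its TSS. H2BC18 had a peak of 679 bp at chr1:149787786-149788464, deep in an intron of a long annotated transcript and 24245 bp past its TSS. The same bases lie in an intron of FCGR1A, an Fc receptor gene, and its TSS was nearer (5431 bp). Only 9.71% of the 31-base words of that peak occurred once in hg38, and its central word occurred 3 times, so reads from its copies cannot be told apart there. In the other 6 peaks at least 98.6% of the words occurred once.

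H3 and H4 form the tetramer at the core of the nucleosome, and the peaks at their genes lay at the start or just before it. H3C2 had the 371 bp peak upstream of it, at -489 to -119 bp from the TSS. H4C4 had a peak of 594 bp at chr6:26188621-26189214, at -102 to 491 bp from the TSS, which covered all 403 bp of the transcript. H4C8 had a peak of 685 bp at chr6:26285200-26285884, whose midpoint was 8 bp from the TSS and which covered 335 of the 409 bp of its canonical transcript (81.9%). A lncRNA on the other strand (ENSG00000289447) starts under the same peak.

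**Figure D1:**
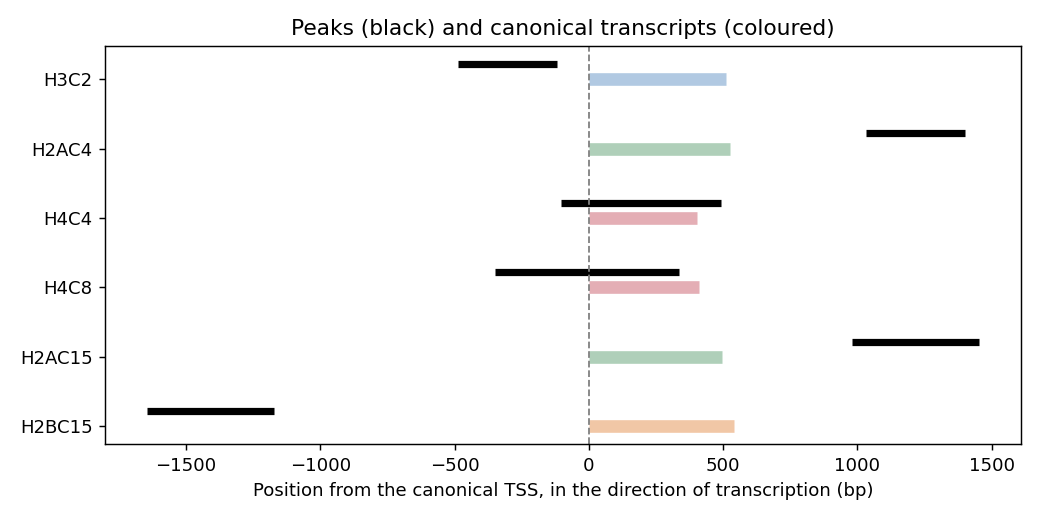
Peaks (black) and canonical transcripts (coloured by family) at 6 histone genes, against position from the TSS in bp in the direction of transcription. The peaks of H4C4 and H4C8 span the TSS, that of H3C2 ends 119 bp before it, and those of H2AC4 and H2AC15 lie past the 3′ end. H2BC18 and H2AC25, whose peaks lie 24245 and 5344 bp past the TSS, are not drawn.

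With the midpoint of a peak within 3 kb of the canonical TSS as the measure, 7 of 73 histone genes had one (9.59%, interval 4.72 to 18.5%), against 6.19% of all protein-coding genes (1241). H2BC18 and H2AC25 were the 2 that dropped out. The background lay within the interval of the histone genes.

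The sequences of 3 of the peaks are shown, because they hold the GATA composite or span a start, on the strand of the histone gene and leaving out exons of the histone genes. The H4C8 stretch stops just before the 5′ end of the annotated gene (chr6:26285638), upstream of the canonical TSS (chr6:26285534). Capitals mark a GATA motif (A or T, then GATA, then A or G), a CTG that forms a composite with it, and the CCAAT and TATA words, on either strand.
Peak at H2BC18, chr1:149787975-149788274, hg38, minus strand: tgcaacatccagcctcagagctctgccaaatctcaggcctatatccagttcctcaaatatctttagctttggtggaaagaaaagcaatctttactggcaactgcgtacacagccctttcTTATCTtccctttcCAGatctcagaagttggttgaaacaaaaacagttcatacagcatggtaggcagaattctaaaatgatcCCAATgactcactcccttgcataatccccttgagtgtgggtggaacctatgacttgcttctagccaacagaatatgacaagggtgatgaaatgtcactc
Peak at H4C4, chr6:26189113-26189214, hg38, minus strand: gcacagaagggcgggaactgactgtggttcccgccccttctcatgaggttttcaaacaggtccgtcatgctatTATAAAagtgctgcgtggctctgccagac
Peak at H4C8, chr6:26285639-26285884, hg38, minus strand: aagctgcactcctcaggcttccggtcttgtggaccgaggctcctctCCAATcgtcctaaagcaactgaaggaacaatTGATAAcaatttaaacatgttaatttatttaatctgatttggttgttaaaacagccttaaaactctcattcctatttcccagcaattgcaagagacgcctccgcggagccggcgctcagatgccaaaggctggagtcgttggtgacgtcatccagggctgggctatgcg

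The composite, CTG followed after 7 or 8 bases by the GATA motif, is the spacing at which LDB1 complexes are known to sit. It was present in 2 of the 7 peaks (28.6%), that of H2BC18 among them, against 22.4% of all peaks and 25.9% of the 6242 peaks in the same range of length. The site at H2BC18 lay 22 bp from the midpoint of the peak. The GATA motif itself was in 4 of 7 peaks (57.1%), those of H2BC18, H4C8 and the H2AC15 pair among them. It was in 71.4% of all peaks and 79.7% of those in the same range of length. The GATA motif was not found in the peaks of H3C2, H4C4 and H2AC25. An E-box (CANNTG) was in all 7, as in 91.6% of all peaks and 96.0% of those in the same range of length.

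Other words were counted in the same way, on both strands. CCAAT was in 5 of 7 peaks against 42.0% of all peaks, the RUNX word TGTGGT in 4 against 37.1%, and the AP-1 word TGANTCA in 3 against 24.4%. The SP/KLF word GGGCGG was in 3 against 22.1%, the ETS word CCGGAA in 2 against 8.71%, and the TATA word TATAAA in 2 against 13.9%. The octamer ATTTGCAT, read by POU2F1, was in the peak of H3C2 alone, against 2.18% of all peaks. Among peaks in the same range of length each share was higher, at 46.3% for CCAAT, 40.6% for RUNX and 27.2% for AP-1. It was 23.9% for SP/KLF, 9.47% for ETS, 15.9% for TATA and 2.53% for the octamer. With 7 peaks, none of these counts ranks one word above another.

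The windows of the histone genes held 45 composites, at 39 genes, or 0.0934 per kb against 0.0765 per kb on all chromosomes with peaks. Of the 45, 2 lay in a peak (4.44%), as did 2754 of 222683 across those chromosomes (1.24%). Most composites near histone genes were thus outside the peaks.

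The promoters of histone genes were compared with those of 15345 protein-coding genes, using RefSeq sequence (GRCh38.p14) from 250 bases before to 50 after the start, which was given for 67 of the 73 genes. Those of H2AC12, H3C11, H3C12, H4C1 and H4C3 were among the promoters not used here. A peak overlapped 3 of the 67 (4.48%), those of H3C2, H4C4 and H4C8, against 399 of all promoters (2.60%). The composite was in 0 of the 67, against 1.00% of all promoters.

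The motifs of these promoters differed between the histone families. CCAAT was in each of the 16 H2A, 18 H2B and 11 H3 promoters, in 8 of 9 of H1 and in 3 of 13 of H4, against 36.3% of all promoters. The octamer was in 11 H2A and 14 H2B promoters and in none of H1, H3 or H4, against 1.72%. Many H2A and H2B genes lie head to head with starts 194 to 251 bp apart, so the promoters of such a pair share most of their bases. With both strands searched, 1 word there can count for both genes, and the H2A and H2B counts are not independent. TATAAA was in 43 of 67 (64.2%) against 9.89%. The GATA motif was in 19 of 67 (28.4%) against 19.8%, from 1 of 9 H1 promoters (11.1%) to 8 of 18 H2B promoters (44.4%). These GATA counts are too small to rank the families. GGGCGG was in 26.9% of the 67 against 58.1% of all promoters, and was in 1 of 16 H2A (6.25%) and 1 of 18 H2B promoters (5.56%) but in 8 of 13 of H4 (61.5%). The median GC content was 44% against 62.7%.

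**Figure D2:**
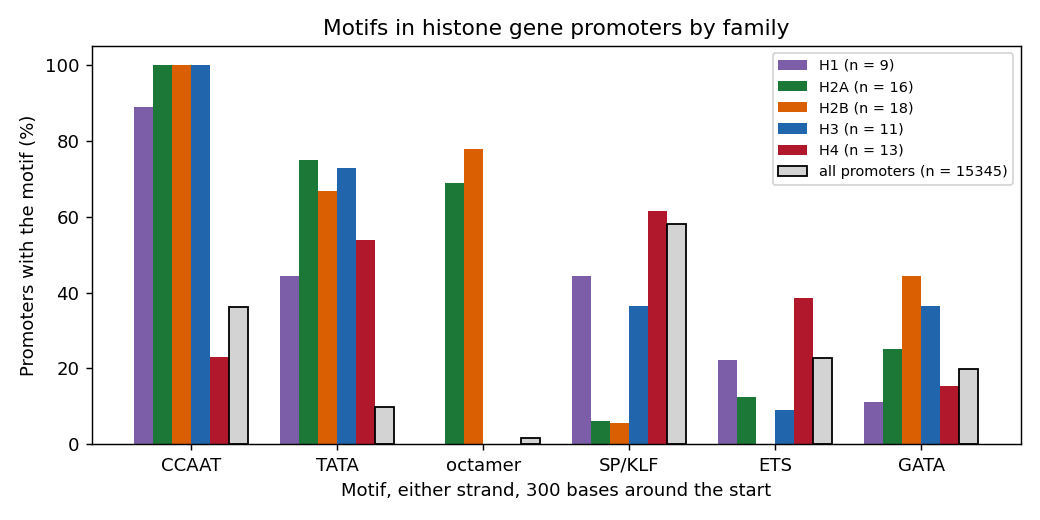
Share of promoters (%) that hold each motif on either strand, for the 5 histone families (coloured bars) and all 15345 promoters (grey). CCAAT is in every H2A, H2B and H3 promoter, the octamer only in H2A and H2B promoters, and the GATA motif in 11.1 to 44.4% against 19.8% of all promoters. Paired H2A and H2B promoters share bases, so their bars are not independent.

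H2A and H2B genes are often paired head to head and share the DNA between their starts. There were 13 pairs of histone genes that point apart with starts within 1 kb, 12 of them H2A with H2B at 194 to 251 bp, and the other H3C7 with H2BC9 at 979 bp. In 0 of the 13 pairs did a peak lie between the starts, and of all promoters of 300 bases 2.60% overlapped a peak, so a count of 0 in 13 is no departure from that share. The nearest was 978 bp from the pair H2AC15 and H2BC15, and the median gap was 27815 bp.

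The 64 histone genes without a peak lay 3966 to 191372 bp from the nearest one, with a median of 27993 bp. Of these, 6 were within 10 kb: H2BC6 (3966 bp), H4C2 (4935 bp), H2BC26 (5315 bp), H4C12 (5363 bp), H3C4 (7570 bp) and H2AC7 (9570 bp). H4C2 lies in the same group as H3C2, and H3C4 and H2AC7 beside H4C4.

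**Figure D3:**
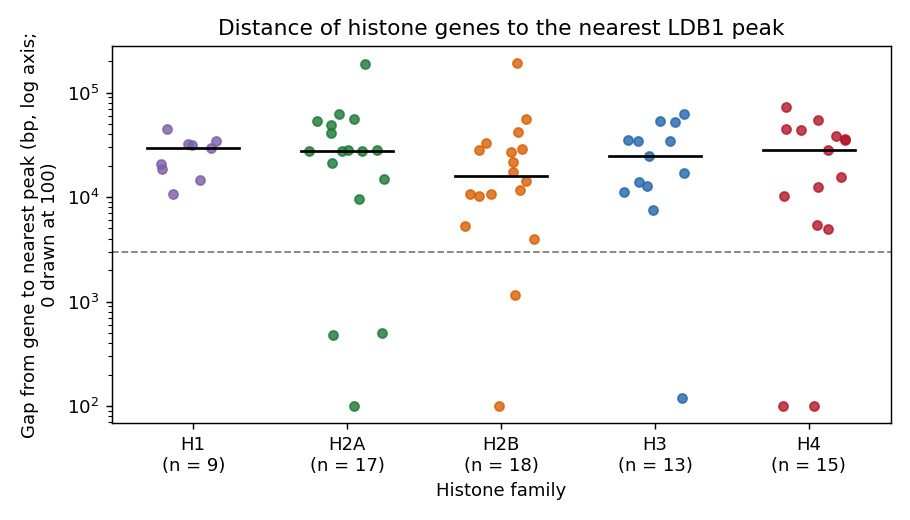
Gap in bp (log axis) from the histone genes described to the nearest LDB1 peak, by family, with genes that a peak overlaps drawn at 100, the median as a bar and the 3 kb limit as a dashed line. In each family most genes lie above the limit, and the 8 points below it are genes with a peak.

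In the group of 32 on chromosome 6, a peak was found at H3C2, H2AC4, H4C4 and H4C8, and the 28 others had none. These were H1-1, H1-2, H1-3, H1-4 and H1-6 of the linker histones, H2AC6, H2AC7 and H2AC8, and H2BC3 to H2BC10. The rest were H3C1, H3C3, H3C4, H3C6, H3C7 and H3C8, and H4C1, H4C2, H4C3, H4C5, H4C6 and H4C7. In the group of 16, H2AC15 and H2BC15 had a peak, and H1-5, H2AC13, H2AC14, H2AC16, H2AC17, H2BC13, H2BC14, H2BC17, H3C10, H3C11, H3C12, H4C11, H4C12 and H4C13 had none. The 5 genes of the third group, H2AC11, H2AC12, H2BC11, H2BC12 and H4C9, lay 27359 to 42126 bp from a peak. The testis pair H2AC1 and H2BC1 was the furthest away, at 187992 and 191372 bp.

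On chromosome 1, H2BC18 was the 1 of 11 genes with a peak, and H2AC18, H2AC19, H2AC20, H2AC21, H2BC21, H3C13, H3C14, H3C15, H4C14 and H4C15 had none. H2BC26, the neighbour of H2AC25, had none. Of the single genes, H4C16, H1-7, H1-8 and H1-10 had none.

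**Figure D4:**
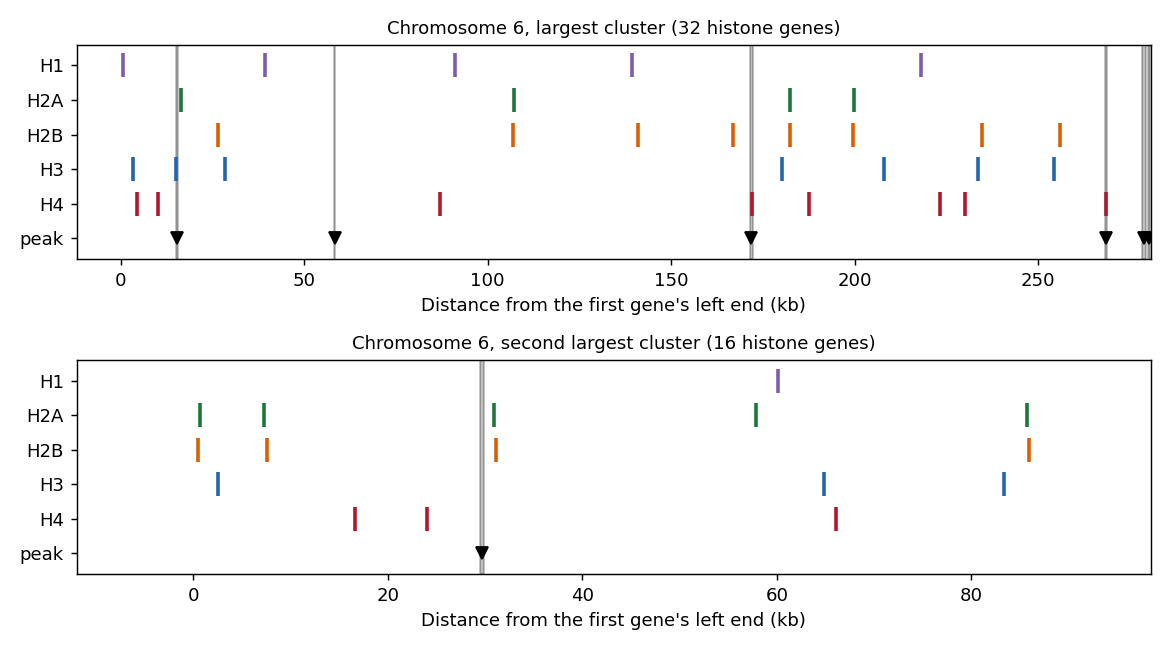
Starts of the histone genes (ticks, by family) and LDB1 peaks (triangles and grey bands) in the 2 largest groups on chromosome 6, against distance in kb from the first gene. The upper map has 4 peaks within the group and others past its right end, and the lower has 1.

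Copies that cannot be told apart by sequence were counted beside the presence of a peak. The words are those of the canonical transcript and not of the 3 kb around the gene. For 6 genes (H2AC18, H2AC19, H3C14, H3C15, H4C14 and H4C15) no 31-base word of the transcript occurred once in hg38, and 0 of them had a peak. A peak was found at 1 of 13 genes with under 50% of words found once, a count that includes those 6. It was found at 2 of 20 with 50 to 90%, and at 6 of 40 with 90% or more. Over all 73 histone genes the share was 12.3%, and these counts are too small to tell from it. How the authors treated reads with several matches is not given in the sources used here, and the part of repeated sequence in the missing peaks was not tested.

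From 30 kb outward a larger share of histone genes had a peak within reach than of all genes or of same-length genes. At 10 kb the share was below that of all genes and above that of other genes in the same length classes. Within 10 kb, 15 had one (20.5%, interval 12.9 to 31.2%), against 25.1% of all genes and 12.9% of other genes in the same length classes. Within 30 kb there were 46 (63.0%, interval 51.5 to 73.2%), against 36.7% and 23.6%, and within 100 kb 71 (97.3%), against 58.3% and 47.2%. The median gap was 26986 bp, against 63659 bp for others in the length range. These genes are neighbours and not independent: 16 peaks were the nearest one for all 73 genes, and 3 of them served 32 genes, so the intervals are too narrow.

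**Figure D5:**
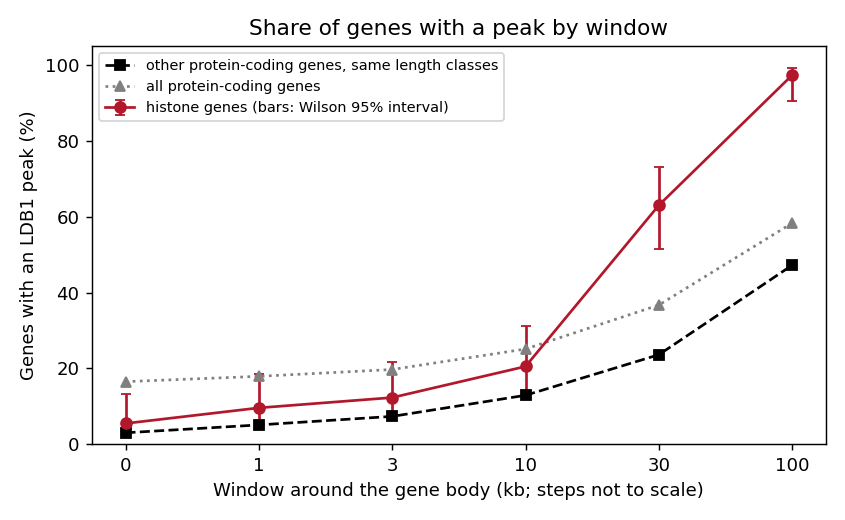
Share of genes (%) with a peak in the body or within the window around it (kb, steps not to scale), for the 73 histone genes (red, Wilson 95% intervals), other protein-coding genes weighted to the same length classes (black) and all protein-coding genes (grey). The value of the histone genes is below that of all genes up to 10 kb, with all genes within their interval from 1 to 10 kb, and above both other lines from 30 kb.

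The groups on chromosome 6 together spanned 0.381 Mb and held 5 peaks, or 13.1 per Mb (exact Poisson 95% interval 4.27 to 30.7). Chromosome 6 held 4.29 per Mb, which is just inside that interval, and all chromosomes with peaks 3.79, which is below it. From the first to the last histone gene on chromosome 6, over 2.17 Mb, there were 20 peaks, or 9.21 per Mb (5.63 to 14.2). That interval, which covers counting error only, lies above both densities. Of these 20 peaks, 4 lay within 3 kb of a histone gene and 16 further away. A peak was found at 6 of the 55 histone genes on this chromosome (10.9%, interval 5.10 to 21.8%), and at 0 of the 21 other protein-coding genes in this stretch (interval up to 15.5%). The 2 intervals overlap, these other genes are longer (3699 to 85835 bp) and their length was not accounted for, and a peak was found at 19.7% of all protein-coding genes and 14.4% of those in the histone genes' length range.

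The longest peaks of this stretch were outside the histone genes. One of 1098 bp had the TSS of BTN3A2, a butyrophilin gene, as its nearest protein-coding one, at 28228 bp. A lncRNA (ENSG00000287050) starts nearer to it, at 5070 bp. One of 1033 bp lay 9806 bp from H4C8, and those of 1005 and 879 bp lay 34259 and 32986 bp from H2BC13. One of 704 bp was nearest to BTN1A1, at 6923 bp. The 5th peak within the groups, of 349 bp, lay 10791 bp from H2BC4, and its central word occurred 22 times in hg38.

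Further gene lists give the setting for the histone genes. Of 10 histone variants listed as replication-independent, which are also made outside S phase, CENPA of the centromere had a peak (647 bp, midpoint at -16820 bp from the TSS). The interval of 1 in 10 is 1.79 to 40.4%, which includes the 19.7% of all protein-coding genes. H2AX, H2AZ1, H2AZ2, H2AJ, MACROH2A1, MACROH2A2, H3-3A, H3-3B and H3-5 had none. Of 39 HOX genes, another family in clusters, 6 had a peak (15.4%, interval 7.25 to 29.7%), and of 87 cytosolic ribosomal protein genes 6 did (6.90%, interval 3.20 to 14.2%). The 19.7% of all protein-coding genes lay inside the interval of the HOX genes and above that of the ribosomal protein genes, whose lengths were not accounted for.

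Of 15 genes that act in histone gene transcription or mRNA processing, 5 had a peak (33.3%, interval 15.2 to 58.3%), and the 19.7% of all protein-coding genes lay inside that interval. POU2F1, which reads the octamer, had one of 368 bp at 28744 bp past its TSS, and E2F1, a factor of S phase entry, one of 635 bp with its midpoint at -2800 bp. LSM11, a part of the U7 snRNP that cuts histone mRNAs, had one of 646 bp at 1070 bp past its TSS. ERI1, which trims the stem-loop end, had 3, and GON4L had 2, the longer of 640 bp. NPAT, HINFP, CASP8AP2 and SLBP were among the 10 without one. Of 10 histone chaperone genes, HIRA had 2 peaks, the longer of 1766 bp, and ATRX had 1 of 546 bp. The interval of 2 in 10 is 5.67 to 51.0%, and the 19.7% of all protein-coding genes lies inside it. Most genes of these lists are longer than histone genes, so their shares are not set against those of the histone genes.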

How the data were processed

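The authors made 1 LDB1 and 1 IgG library from NB4 cells by CUT&Tag. Per the labels' processing notes, Bowtie2 2.4.4 and MACS3 3.0 were used with hg38. Per the paper's methods, peaks were called on paired-end fragments. Whether IgG served as control, and whether duplicates or multiply aligned reads were removed, is not given in the sources used here. Without a control, open chromatin and repeats could also have been called as peaks. The deposited values were peak start, end and length in bp, counted from 1. Depth is unknown, and the intervals cover counting error only.

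Genes came from GENCODE 44. A gene had a peak when the peak overlapped its body or 3 kb on either side. Length was accounted for in 20 classes of all protein-coding genes, and the interval of the ratio covers the histone genes' count only. Groups were chained over gaps of up to 200 kb. Words of 31 bases were counted on both strands of hg38. The counting was tested on simulated data. Scripts ran on numba 0.67.0, SciPy 1.17.1, matplotlib 3.10.9, pandas 2.3.3, numpy 2.4.6 and Python 3.11.15. Histone genes are named, peaks in full for those that have one, and genes of the lists where they have a peak. A histone gene and a peak sequence are not reported here, although the gene stands in the counts over all histone genes. The histone genes and lists were chosen with earlier results of these data known. The alternatives were other windows, the longer peaks, peaks of unique sequence, other gene models and other groupings.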

Additional observations from a re-analysis of the deposited data

How the results depend on the processing

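No paired analysis was possible because LDB1 and IgG had 1 library each, and for the same reason no replicate could be left out. Of 26 alternative values for 7 results, 22 stayed within the interval of the value reported, or within 1.5 times it for a count. In the gene body alone the share of histone genes with a peak was 5.48% (against 16.5% of all genes and 3.02% in the same length classes) and the number of peaks 4. Within 1 kb of the TSS the share was 4.11%. No share of all genes is given for this window, so that value cannot be called high or low. Against genes of the same length range in place of length classes, the ratio was 0.859 (the cause was not tested). With the canonical transcript in place of the whole gene, chosen after seeing the data, 7 histone genes had a peak (9.59%) against 5.64% of genes in the same length classes, a ratio of 1.70. H2BC18 and H2AC25 lost theirs. With the 5523 longer peaks (451 bp or more) 7 histone genes had a peak (9.59%). The ratio to genes in the same length classes was then 2.23, within the interval of the ratio reported. Depth, peak height and a second library are what limit these values.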
